A study of Mus musculus with 42 samples.

Results

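The 37 genes described here encode parts of the lysosome: 9 cathepsins, 9 glycosidases and lipid hydrolases, 3 lumenal cofactors and progranulin, 7 membrane proteins, 5 subunits of the proton pump, 3 transcription factors and the autophagy receptor Sqstm1. They were taken by gene symbol, and all 37 were found among the 21884 protein-coding genes of the mm10 annotation. Pol II and acetylation of histone H3 at lysine 27 (H3K27ac) were mapped by ChIP-seq in bone marrow-derived macrophages (BMDMs) of male C57Bl6/J mice that were wild type (WT) or lacked the nuclear receptor Nur77 through a Cre-made deletion of its gene Nr4a1 (KO). The mice were 6 to 12 weeks old, and the marrow was differentiated for 7 days in L929-conditioned medium before LPS was added at 100 ng/ml and left for 1 or 18 h, with cells at 0 h as the resting groups. Every genotype and time was covered by 3 libraries of each antibody and 1 of input chromatin, 42 in all. According to the methods of the study, the deletion was made with a CMV-driven Cre and affects the whole body, and WT littermates served as controls. By this design the deletion precedes differentiation as well as LPS stimulation. The labels give the genotype of the KO group only as cre, whereas by the methods the KO mice were later bred without Cre, a mismatch that was not resolved here. The methods speak of biological replicates. Since the labels do not tell whether the 3 libraries of a group came from separate animals or cultures, p-values measure the spread between these libraries, which may be in part technical.

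Lysosomes are acidic compartments in which proteins, glycans and lipids taken up by phagocytosis or delivered by autophagy are broken down. Macrophages are rich in them, and cathepsins, which are lysosomal proteases, also cut antigens and the invariant chain for presentation on MHC class II. Many lysosomal genes carry the E-box CACGTG near their start, within a longer palindrome known as the CLEAR element, which is bound by the related transcription factors Tfeb, Tfe3 and Mitf.

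The E-boxes of these genes are shown first because they are the sequence feature by which the group is known. RefSeq promoter windows (GRCm38.p6, the mm10 assembly), each from 250 bases before to 50 bases after an annotated start, were matched by symbol for 31 of the 37 genes and gave 38 windows, and Asah1, Atp6v0d2, Atp6v1h, Ctsb, Ctsh and Npc1 were not matched. CACGTG was found in 9 of the 38 windows (23.7%), against 7.15% of all 32851 windows of the same length. The longer TCACGTGA, which contains CACGTG, was found in 6 (15.8%), against 0.974% of all windows. No window of these genes held the full CLEAR palindrome, in which G precedes and C follows those 8 letters, and which 0.326% of all windows held. Both strands were searched, and these palindromes read the same on either. In the stretches below, written 5′ to 3′ on the strand of the gene, capitals mark TCACGTGA or, where the outer letters differ, CACGTG.
Ctsa (chr2:164833745-164833787, plus strand): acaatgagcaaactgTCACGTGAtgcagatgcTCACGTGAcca
Gla (chrX:134601178-134601248, minus strand): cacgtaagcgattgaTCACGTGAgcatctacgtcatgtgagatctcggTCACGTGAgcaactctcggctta
Mcoln1 (chr8:3500432-3500495, plus strand): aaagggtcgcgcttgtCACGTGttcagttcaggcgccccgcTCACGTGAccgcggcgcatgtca
Atp6v0d1 (chr8:105566050-105566083, minus strand): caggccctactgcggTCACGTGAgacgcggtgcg
Atp6v1a (chr16:44139369-44139406, minus strand): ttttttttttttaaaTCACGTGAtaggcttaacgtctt
Lamp1 (chr8:13159084-13159167, plus strand): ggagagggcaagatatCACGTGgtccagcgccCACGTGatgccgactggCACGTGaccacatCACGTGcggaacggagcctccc
Gaa (chr11:119267807-119267844, plus strand): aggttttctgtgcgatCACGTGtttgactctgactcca
Ctsl (chr13:64370735-64370770, minus strand): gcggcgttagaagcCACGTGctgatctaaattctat
Ctsd (chr7:142387828-142388077, minus strand): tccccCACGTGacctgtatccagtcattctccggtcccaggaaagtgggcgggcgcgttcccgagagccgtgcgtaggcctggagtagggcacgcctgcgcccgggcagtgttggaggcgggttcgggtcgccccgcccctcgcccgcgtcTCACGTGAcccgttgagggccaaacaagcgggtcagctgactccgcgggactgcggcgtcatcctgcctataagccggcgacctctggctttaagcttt
Ctsa and Gla each held the 8-letter motif at 2 positions, and Lamp1 held CACGTG at 4 positions, none with both outer letters of the longer motif. The whole 250 bases before the start are given for Ctsd, whose Pol II fell most among the cathepsins after 1 h of LPS. The NBRE AAAGGTCA, the monomer site of Nur77, was in none of the 38 windows and in 1.51% of all windows. The AP-1 site TGAGTCA was in 4 windows (10.5%, those of Cd68, Gpnmb, Neu1 and Psap), against 5.20% of all. A match of letters is a description of the window and does not show that a factor binds there.

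Each value below is a sum of normalized tags, scaled to 10000000 tags per library, from regions called separately in each library: over the gene body with 500 bp at each end for Pol II, and within 2500 bp of the outermost annotated start for H3K27ac. A value of 0 means that no region was called, not that no read was present. Libraries held 2.17e+07 to 3.61e+07 tags for Pol II, 1.35e+07 to 3.11e+07 for H3K27ac in WT and 2.36e+07 to 5.54e+07 in KO, and 2.56e+07 to 4.53e+07 for input. Over Nr4a1 itself, Pol II at 0 h was 189, 188 and 208 tags in WT and 87.8, 76.1 and 70.2 in KO (log2 change -1.22, SE 0.17, adjusted p = 0.000123), with a further call at 18 h, where it was 7.46, 5.98 and 0 in WT and at 0 in all KO libraries. At 1 h it was not lower in KO, with 25.5, 23 and 30.4 tags in WT and 33.5, 39 and 36.6 in KO (log2 change 0.36, adjusted p = 0.0892), and its LPS change at 1 h differed between genotypes by 1.58 (adjusted p = 0.000242). H3K27ac at its start overlapped between genotypes at 0 and 1 h. Loss of Nur77 is therefore taken from the labels and methods, and which part of the gene the deletion removes was not analysed here. All 7 macrophage markers (Csf1r, Adgre1, Itgam, Mertk, Fcgr1, Lyz2 and Spi1) had Pol II in all libraries, and their summed Pol II moved with LPS and genotype, from 21966 to 25970 tags at 0 h to 33165 to 35139 at 1 h and 45938 to 48368 at 18 h in WT, and from 24807 to 26702 to 24240 to 25041 and 38892 to 42229 in KO. Of 4 dendritic cell markers 2 or 3 had Pol II in a group, and their sum was 258 to 337 tags at 0 h and 1159 to 1374 at 1 h in WT and 295 to 323 and 1142 to 1282 in KO. Among them Xcr1 had 219 to 1349 tags in all libraries, while Siglech was at 0 in all libraries. Markers of fibroblasts and of mast cells and basophils were at or near 0, while some markers of lymphocytes and neutrophils were not. Of the B cell markers Pax5 had no Pol II in any library, Cd79a 33.8 to 116 tags in all 18 and Ms4a1 up to 72.3 tags in 15. H3K27ac at the start of Ms4a1 was 106 to 363 tags in all 18. Of 5 T cell markers Lck had 56.9 to 146.5 tags and another at most 56.3, both in all libraries, and 3 had none. Of 6 neutrophil markers S100a8 had at most 45.3 tags and Camp at most 8.10, and 4 had no Pol II. Their summed Pol II at 0 h was 15.9 to 22.6 tags in WT and 39.3 to 45.3 in KO. At 18 h it was 5.64 to 7.63 in WT and 0 in KO. Their summed H3K27ac was higher in KO without overlap at 0 h (72.4 to 86.4 in WT, 162 to 179 in KO). The same held at 1 h (59.6 to 70.4 and 105 to 124), while at 18 h the genotypes overlapped. The part of cell composition in the results was not tested, and in bulk chromatin a change in the share of cells and a change per cell cannot be told apart. Among the H3K27ac libraries, KO replicates 2 and 3 at 1 h and KO replicate 1 at 18 h stood apart: across 10424 genes the former correlated with KO replicate 1 at 1 h at r = 0.912 to 0.913 and the latter with the other KO libraries at 18 h at r = 0.914 to 0.915, while KO replicate 1 at 1 h correlated with the WT libraries at 1 h at r = 0.978 to 0.980. The former correlated with each other at r = 0.991 and with the latter, from the other time, at r = 0.904 to 0.905. Whether these 3 libraries carry the right label was not tested, so H3K27ac values of KO at 1 and 18 h are given as labelled, and the changes named there also without them. Pol II libraries of a group correlated at r = 0.985 to 0.993. After 1 h of LPS most genes lost Pol II signal, so centring each library on its median moved the log2 change of the median gene by 0.80 in WT at 1 h, 0.57 in KO at 1 h, -0.25 for KO against WT at 1 h, 0.14 for KO against WT at 18 h, and -0.23 and 0.17 for the difference in the LPS change at 1 and 18 h. Changes are therefore read beside the median of all genes.

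Resting WT macrophages carried dense Pol II over most lysosomal genes. Per kb of gene window, the median of the 37 genes was 49.3 tags against 7.22 for the 13395 genes above 0, and 21 of the 37 exceeded the 90th percentile of those genes (45.8 tags per kb). The densest was Ctsb, a cysteine protease (chr14:63122462-63145923, plus strand), with 497 ± 31.2 tags per kb (SD, n = 3), and next came the aspartic protease gene Ctsd (chr7:142375911-142388038, minus strand) with 453 ± 15.2. Their ranges over libraries overlapped. Psap (chr10:60277627-60302597, plus strand), which encodes the precursor of the saposins that help hydrolases act on sphingolipids, had 345 ± 22.3 tags per kb. Gpnmb, a transmembrane glycoprotein gene, and Ctsl, another cysteine protease gene, followed with 248 ± 29.7 and 237 ± 6.33, which did not differ beyond their spread. The lowest densities were those of Atp6v1h, a regulatory subunit of the proton pump (10.3 ± 0.990 tags per kb), and of Gaa, acid alpha-glucosidase (2.39 ± 0.905). Among the transcription factors, Tfe3 (chrX:7762560-7775202, plus strand) had 74.2 ± 6.39 tags per kb, Mitf (chr6:97807052-98021349, plus strand) 49 ± 5.01 and Tfeb (chr17:47737030-47792419, plus strand) 38.7 ± 2.92. At 0 h the window of a typical member lay wholly inside 1 called region, of whose length a median of 34.9% lay outside the window, so values are averages of a broad region and can hold signal of a neighbour. At 1 h called regions covered a median of 83.8% of the window in WT and 97.8% in KO, and signal outside them counts as 0. Percentages of the resting mean, and differences between genotypes at 1 h, therefore mix the extent of called regions with their density. Windows that overlap another protein-coding gene include those of Ctsa (Neurl2 and Pltp), Ctsb (Fdft1), Ctsd (Gm49369), Ctsz (Nelfcd), Hexa (Tmem202), Gla (Rpl36a and Hnrnph2), Npc2 (Isca2), Grn (Fam171a2), Psap (Cdh23), Lamp1 (Grtp1), Npc1 (Rmc1), Mcoln1 (Pnpla6), Atp6v0d1 (Hsd11b2), Atp6v1a (Naa50), Atp6v1h (Rgs20) and Sqstm1 (Mrnip and Mgat4b).

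The first question was how LPS changes Pol II at these genes in WT macrophages. After 1 h Pol II was lower at 26 of 37 genes and higher at 7, at an adjusted p under 0.05. Over the genome 87% of all genes tested were called, 18.6% higher and 68.5% lower. The median log2 change of the 37 was -1.32, against -0.82 for all genes tested. With centred libraries 14 rose and 20 fell (37.2% and 38.1% of all genes) and with quantile normalization 6 and 28 (34% and 40.3%, median -1.22 against -0.10), while with only 500 bp around each start the median of -0.34 was close to the -0.32 of all genes. After 18 h 20 genes were higher and 10 lower than at 0 h, while 66.6% of all genes tested were called, 33.3% higher and 33.3% lower, and the median change was 0.30 against -0.0034. Centred libraries gave 17 higher and 11 lower (31.1% and 37.7% of all genes), whereas quantile normalization gave 13 and 15 (32.5% and 34.8%) and subtraction of the input 14 and 11 (26% and 40.9%). Both comparisons use the same 3 libraries at 0 h, and the counts by role below stand beside these shares of all genes.

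**Figure D1:**
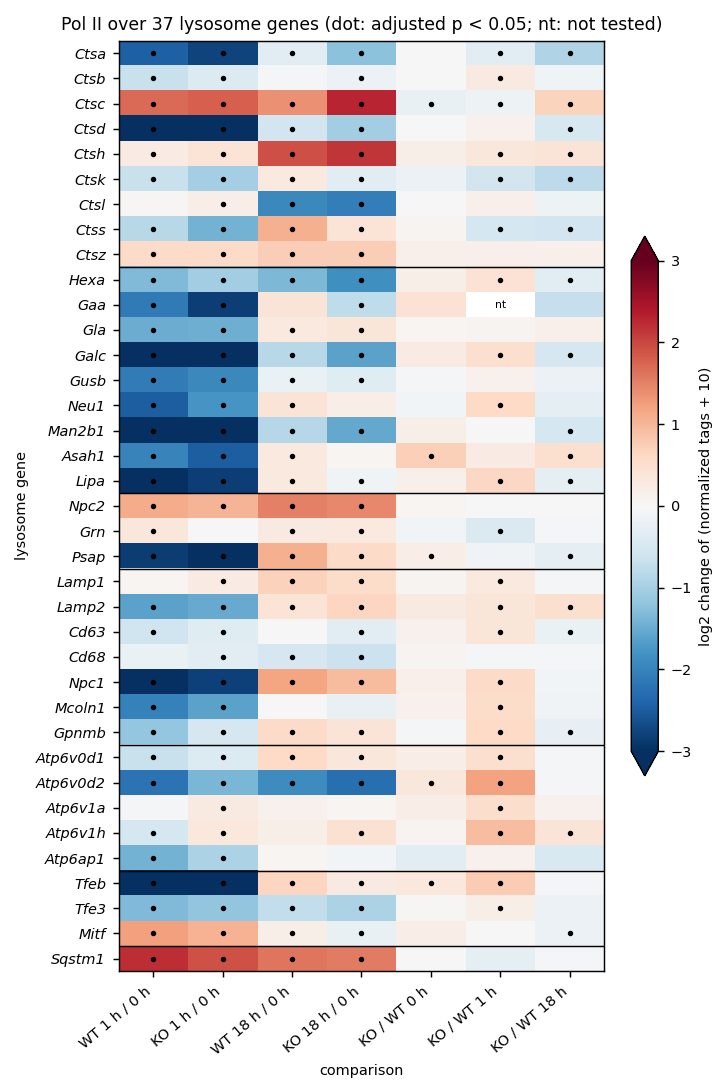
Log2 change of Pol II (normalized tags + 10) over the 37 lysosomal genes, grouped by role with black lines, in 7 comparisons. Red is higher and blue lower, colours saturate at 3, a dot marks an adjusted p under 0.05 and nt a gene not tested; the columns at 1 h are mostly blue, and those at 18 h hold both colours.

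All 9 glycosidase and lipid hydrolase genes lost Pol II after 1 h of LPS, with a median log2 change of -2.13 (68.5% of all genes tested were lower), and they stayed lower in all 9 cases with centred or quantile-normalized libraries and in 7 cases in a window of 500 bp around the start. Man2b1, lysosomal alpha-mannosidase (chr8:85083270-85098282, plus strand), went from 703, 834 and 830.1 tags at 0 h to 44.5, 37.9 and 55.4 at 1 h, 5.82% of its resting mean (log2 change -3.84, SE 0.13, adjusted p = 1.26e-14). At 18 h it was 431, 438 and 427, still below every resting library (log2 change -0.85, adjusted p = 1.57e-05), although a window of 500 bp around the start gave 0.043. Galc (chr12:98202294-98259459, minus strand), whose product removes galactose from galactosylceramide, went from 474, 793 and 656 to 32.4, 36.7 and 47.2 tags (log2 change -3.72, SE 0.17, adjusted p = 9.79e-13). The level at 1 h lay below the 97.8 tags of the input in the same window. Over the settings tried, the log2 change at 1 h ranged from -4.09 to -0.76 for Man2b1 and from -5.68 to -0.64 for Galc. Lipa, lysosomal acid lipase (chr19:34492318-34527474, minus strand), which frees cholesterol and fatty acids from lipoproteins, went from 5582, 6519 and 6596 to 636, 582 and 639 tags (log2 change -3.31, SE 0.058, adjusted p = 2.63e-18) and had 7563, 7622 and 7844 at 18 h. All resting libraries of Lipa thus stood above those at 1 h and below those at 18 h. After 18 h this group was split, with 4 higher and 4 lower, and its largest fall was at Hexa, the alpha subunit of beta-hexosaminidase A (chr9:59539540-59565109, plus strand). Hexa had 3486, 4087 and 4212 tags at 0 h, 1467, 1582 and 1651 after 1 h and 1529, 1516 and 1526 after 18 h (log2 change -1.36 at 18 h, adjusted p = 1.46e-11), so both stimulated groups lay below all resting libraries. Asah1 (acid ceramidase), Gla (alpha-galactosidase A) and Neu1 (sialidase) rose at 18 h by log2 changes of 0.30, 0.30 and 0.38.

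The cathepsins were mixed at both times: 3 of 9 rose and 5 fell after 1 h, and 5 rose and 3 fell after 18 h, beside 18.6% higher and 68.5% lower of all genes at 1 h and 33.3% and 33.3% at 18 h. Ctsc (chr7:88278085-88310888, plus strand), the dipeptidyl peptidase that activates granule serine proteases, had 918, 1041 and 970.2 tags at 0 h, 3180.5, 3172 and 3272 after 1 h and 2498, 2619.8 and 2554 after 18 h. Stimulated libraries were above all resting ones, 3.29-fold the resting mean at 1 h (log2 change 1.71, SE 0.056, adjusted p = 9.66e-15) and 2.62-fold at 18 h (log2 change 1.38, SE 0.056, adjusted p = 3.79e-13). Ctsh, a cysteine protease with aminopeptidase activity (chr9:90054152-90076089, plus strand), had 324, 425 and 384 tags at 0 h and 1450.4, 1463 and 1449 at 18 h. This was its larger change, 3.85-fold (log2 change 1.93, SE 0.076, adjusted p = 2.62e-13), against a log2 change of 0.24 at 1 h. Ctss (chr3:95526786-95556403, plus strand), which cleaves the invariant chain, moved down and then up: it had 3684, 4203 and 4194 tags at 0 h, 2192, 2240.3 and 2326 at 1 h (log2 change -0.83, adjusted p = 3.06e-10) and 8367, 8150.0 and 8648 at 18 h (1.06, adjusted p = 2.29e-11). Ctsl (chr13:64359337-64370890, minus strand) fell only at 18 h. Its libraries were at 2901, 2953 and 3057 tags at 0 h and 2927, 3059 and 3123 at 1 h, which overlapped, and at 766, 758 and 805 at 18 h, 26.1% of the resting mean (log2 change -1.92, SE 0.059, adjusted p = 9.05e-15). Ctsd fell from 5721, 6097 and 6026 to 631, 605 and 682 tags at 1 h, 10.8% of the resting mean, and had 4014, 3996 and 3898 at 18 h. Ctsz, a carboxypeptidase gene, rose at both times, by log2 changes of 0.57 and 0.74, and Ctsb fell at 1 h by 0.66 on the log2 scale.

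Psap, Npc2 and Grn, which act in the lumen, all rose by 18 h. Npc2 (chr12:84754562-84773152, minus strand), which hands cholesterol to the membrane protein Npc1, had 1061, 1209 and 1164 tags at 0 h, 2435, 2367 and 2601 after 1 h and 3249, 3288 and 3227 after 18 h (log2 change 1.10, adjusted p = 7.22e-12, and 1.5, adjusted p = 1.97e-13). No stimulated library overlapped a resting one. Psap had 8287, 9351 and 9213 tags at 0 h and 1209, 1181 and 1288 at 1 h, 13.7% of the resting mean (log2 change -2.86, SE 0.051, adjusted p = 3.14e-18). By 18 h it held 19206, 17986 and 18737 tags, 2.08-fold the resting mean (log2 change 1.06, SE 0.051, adjusted p = 4.09e-12). Grn, progranulin, rose least, with log2 changes of 0.33 at 1 h and 0.28 at 18 h. Of the 7 membrane proteins 5 fell at 1 h and none rose, where 68.5% of all genes were lower, but with centred libraries 3 rose and 4 fell at 1 h. At 18 h 4 rose and 1 fell, where 33.3% of all genes were higher and 33.3% lower. Npc1 (chr18:12189692-12236400, minus strand), the cholesterol exporter, fell from 692, 828 and 769 to 55.9, 72.3 and 96.3 tags and then held 1789.6, 1719 and 1699.8. Those at 1 h were the lowest and those at 18 h the highest libraries of this gene in WT (log2 changes -3.21 and 1.18, adjusted p = 3.15e-13 and 5.66e-07). Lamp1 and Lamp2, the abundant glycoproteins of the lysosomal membrane, rose at 18 h by log2 changes of 0.70 and 0.42, whereas Cd68, a macrophage glycoprotein of the same family, fell by 0.50.

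Proton pump genes fell at 1 h in 4 of 5 cases (all genes 68.5%), but with centred libraries 2 rose and 2 fell, and with quantile normalization 5 fell. The exception among the uncentred values was Atp6v1a, the catalytic subunit, with 2047, 2701 and 2395 tags at 0 h and 2283, 2261 and 2304 at 1 h, which overlapped (adjusted p = 0.508). Atp6v0d2 (chr4:19876841-19922605, minus strand), a subunit known from osteoclasts and macrophages, went from 3739.9, 4376 and 4416 tags to 909, 938 and 813 at 1 h and 1092, 1163 and 1128 at 18 h. Its stimulated libraries were all far below the resting ones (log2 change -2.22, adjusted p = 3.06e-15, and -1.88, adjusted p = 6.48e-14). The paralogue Atp6v0d1, which is widely expressed, rose at 18 h by a log2 change of 0.60.

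The 3 transcription factors differed. Tfeb had 1999, 2317 and 2231 tags at 0 h and 148, 144 and 184 at 1 h, 7.27% of the resting mean (log2 change -3.71, SE 0.075, adjusted p = 1.36e-17). At 18 h it had 3409.7, 3422 and 3336, above all resting libraries (log2 change 0.64, SE 0.075, adjusted p = 8.04e-07), although the start of the gene alone gave -0.089. Tfe3 fell at both times, from 912, 1069 and 1057 tags to 409.7, 412 and 376 at 1 h and 596, 601 and 621 at 18 h (log2 changes -1.32 and -0.73, adjusted p = 9.71e-12 and 7.24e-08). Mitf rose at 1 h from 9307, 11042 and 11283 to 25286, 24409 and 24699.5 tags (log2 change 1.24, SE 0.061, adjusted p = 2.81e-12), with no overlap. At 18 h it had 11780.2, 11698 and 11872, a small rise (log2 change 0.17, adjusted p = 0.0238) that turned to -0.21 with quantile normalization, lost its call with centred libraries and was -0.18 at the start. The log2 change of Mitf at 1 h ranged from 0.22 to 2.04 over the settings tried. Sqstm1 (chr11:50199366-50210827, minus strand), the autophagy receptor p62, had 873, 761 and 750.5 tags at 0 h, 2992, 2865 and 5884 after 1 h and 2532, 2430.1 and 2395 after 18 h (log2 change 2.21, SE 0.23, adjusted p = 9.41e-08 at 1 h, and log2 change 1.62 at 18 h). The third library at 1 h was the highest, as it also was in KO, and the other 2 still lay above every resting library.

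**Figure D2:**
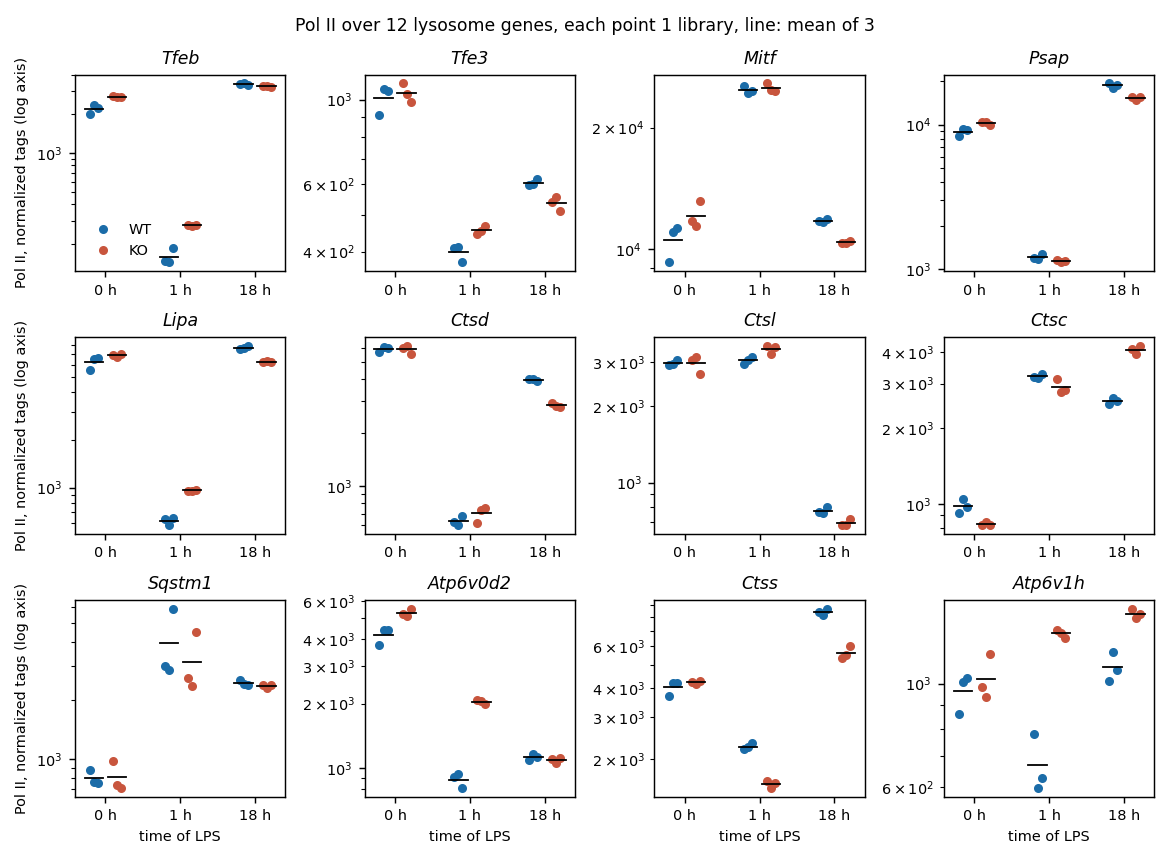
Pol II in normalized tags (log axis) over 12 lysosomal genes, with each point 1 library, WT blue and KO red, and a black line at the mean of 3 libraries. Tfeb, Psap and Lipa dip at 1 h and return by 18 h, Ctsl falls at 18 h, and Ctsc and Sqstm1 are higher at both times.

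H3K27ac at the start of these genes was compared in the same way, over 36 genes, since no region was called within 2500 bp of the outermost start of Atp6v1h in any library. Some of these windows also hold the start of another protein-coding gene. They are those of Ctsa (Neurl2), Hexa (Tmem202), Gla (Hnrnph2), Man2b1 (Wdr83), Npc2 (Isca2), Atp6v1a (Naa50) and Sqstm1 (Mgat4b). After 1 h in WT it was lower at 18 genes and higher at 4 (median log2 change -0.47, against -0.053 for all genes), while 54.7% of all genes tested were called, 25.3% higher and 29.4% lower. With 1 replicate number left out, 17 to 30 of the 36 genes were called, a range not compared with all genes. The falls were largest at Lipa, Ctsd, Atp6v0d2 and Psap. Lipa went from 839.9, 801 and 788 tags at 0 h to 262, 229 and 209 at 1 h (log2 change -1.76, SE 0.26, adjusted p = 3.64e-05), and Ctsd from 1249.9, 1404 and 1385 to 438, 384 and 358 (log2 change -1.75, SE 0.20, adjusted p = 2.45e-06). No library at 1 h reached a resting one in either gene. Atp6v0d2 went from 572, 809.9 and 742 to 251, 225 and 258 and Psap from 1188, 1228 and 1162 to 496, 442 and 450.1, again without overlap. The genes that rose were Npc2 (508, 443 and 509 to 852, 829 and 850.2 tags, log2 change 0.79), Mitf (0.61), Ctsh (0.42) and Ctsc (0.29). Mitf went from 469, 529 and 540.4 to 788, 781 and 786 tags, Ctsh from 278, 291 and 295 to 381, 374 and 412 and Ctsc from 453, 454 and 438 to 539.8, 530.1 and 583. Tfeb fell from 400.2, 377 and 389.7 to 154, 158 and 174 tags (log2 change -1.21, adjusted p = 9.67e-05), and Tfe3 went from 409, 424 and 489 to 273, 291 and 294 (-0.60, adjusted p = 3.85e-05). At a further annotated start of Mitf, 122.8 kb downstream of the first, H3K27ac was 28.2, 19.2 and 11.9 tags at 0 h and 87.8, 92.7 and 89.3 at 1 h in WT. That start also had more acetylation in every library at 1 h than in any resting library.

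After 18 h H3K27ac was higher at 11 of the 36 genes and lower at 4 (median log2 change 0.24, or 0.024 with quantile normalization, against -0.034 for all genes), while 50% of all genes tested were called, 23.5% higher and 26.5% lower. Without the 3 libraries that stand apart, all of them KO, the same comparison called 26 genes, as the estimate of the spread is shared. That estimate serves all genes, so the rise is not a result about the lysosomal genes alone. Npc2 had 979, 956 and 975 tags (log2 change 0.98, SE 0.068, adjusted p = 1.03e-08) and Ctsh went from 278, 291 and 295 to 532, 561 and 512 (log2 change 0.87, SE 0.13, adjusted p = 3.11e-05). Ctsz went from 944, 954 and 1058 to 1782, 1629 and 1338 tags (log2 change 0.67) and Npc1 from 138, 162 and 143 to 241, 236 and 227 (0.64), and both lost their call in some fits with 1 replicate number left out. Atp6v0d2 was at 264, 267 and 277 tags (log2 change -1.35, SE 0.20, adjusted p = 3.83e-05), and Hexa went from 1356, 1505 and 1563 to 830.4, 759.6 and 753 (log2 change -0.91). Cd68 went from 1628, 1764 and 1815 to 1430.0, 1349 and 1419.8 tags (log2 change -0.31). In each of these 7 genes the stimulated libraries were separate from the resting ones. Ctsk, a collagen-degrading cathepsin, and Ctss are neighbours whose starts, 27.5 kb apart, lay in 1 H3K27ac region in 16 of 18 libraries, so their values are not independent.

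Pol II over the gene and H3K27ac at its start were then set side by side in WT, from separate libraries. At 1 h 4 of 36 genes were higher and 17 lower in both, 11 were called in Pol II alone and 1 in H3K27ac alone, while of all genes tested in both marks 14.3% were higher and 27.5% lower in both. At 18 h 9 were higher and 4 lower in both and 1 was called in opposite directions, against 18.4%, 18.8% and 2.33% of all genes. That gene was Ctsl, whose Pol II fell (log2 change -1.92) while H3K27ac at its start went from 214, 246 and 281 to 319, 328 and 323 tags (log2 change 0.38, adjusted p = 0.0137). In KO at 18 h Ctsl was again opposite, with -2.07 in Pol II and 0.41 in H3K27ac (0.36 without the apart library), as was Ctsb with -0.18 and 0.23 (0.25). Tfeb showed unequal size: at 1 h its Pol II fell by 3.71 and its H3K27ac by 1.21 on the log2 scale.

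**Figure D3:**
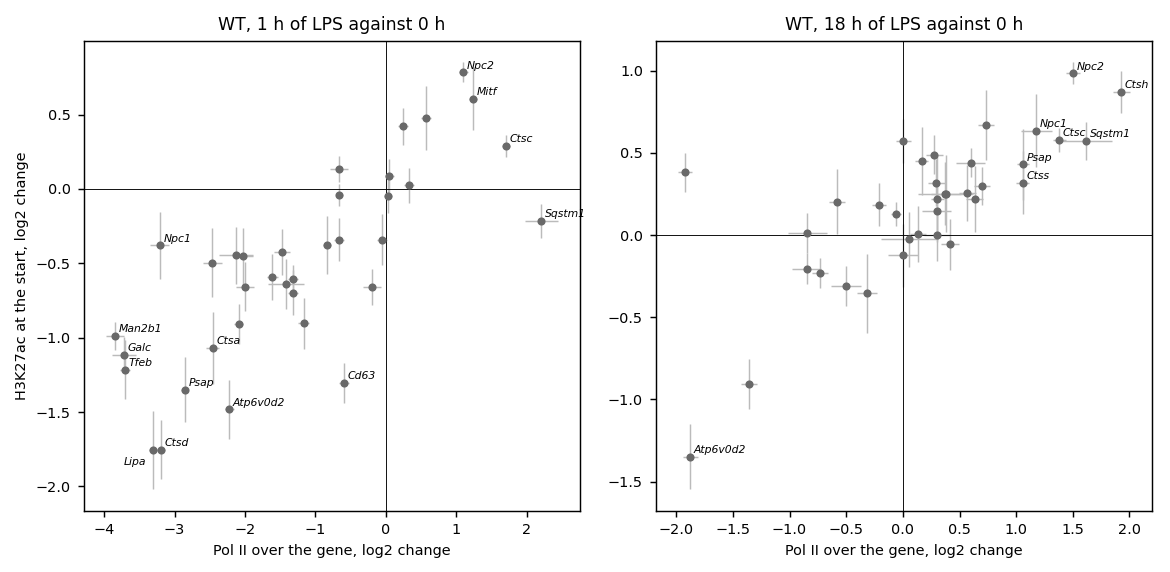
Log2 change of Pol II over the gene (horizontal) against that of H3K27ac at the start (vertical) for 36 lysosomal genes in WT, at 1 h (left) and 18 h (right) of LPS against 0 h, with bars showing the SE of each change. At 1 h most points lie in the lower left, and at 18 h Ctsl lies at a Pol II change of -1.92 with H3K27ac slightly above 0.

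The same LPS comparisons were made in KO macrophages. After 1 h Pol II was higher at 10 genes and lower at 26 (82.8% of all genes tested were called, 20.6% higher and 62.2% lower), with a median log2 change of -1.05 against -0.62, and with centred libraries 13 rose and 20 fell. All 9 glycosidase and lipid hydrolase genes fell again, under each scaling, where 62.2% of all genes fell. Man2b1 went from 919, 872 and 865 to 45.6, 47.5 and 43.1 tags, 5.13% of the resting mean (log2 change -4.01, SE 0.13, adjusted p = 7.15e-15), and Galc from 711, 702 and 844 to 54, 54.1 and 68.7, below its input of 158. Psap went from 10464, 10346 and 9884 to 1159, 1126 and 1137 tags (log2 change -3.15, SE 0.051, adjusted p = 1.22e-18). These 3 genes had no stimulated library near a resting one. Ctsc rose from 826, 845 and 827 to 3117, 2784 and 2831 (log2 change 1.79, SE 0.056, adjusted p = 5.11e-15), Sqstm1 from 978, 733 and 711 to 2609, 2360.4 and 4472, and Npc2 from 1157, 1144 and 1276 to 2390.1, 2389 and 2510.5, each without overlap. Tfeb went from 2722, 2700.1 and 2688 to 276, 272 and 279 tags (log2 change -3.25), Tfe3 from 1103, 1036 and 988 to 444, 454 and 466 (-1.18) and Mitf from 11750.2, 11416 and 13136 to 25718, 24808 and 24655 (1.05). The direction of each transcription factor at 1 h was thus that of WT. Over the settings tried, the log2 change in KO at 1 h ranged from 0.17 to 1.62 for Mitf and from -4.26 to -0.63 for Man2b1.

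After 18 h in KO 16 genes were higher and 16 lower than at 0 h (70.2% of all genes tested were called, 28.1% higher and 42.2% lower), with a median log2 change of 0.055 against -0.18, which turned to -0.18 against -0.061 with quantile normalization. Of the 9 glycosidase and lipid hydrolase genes 6 were lower and 1 higher, beside 42.2% and 28.1% of all genes. Ctsc ended at 4113, 3940.2 and 4221 tags, 4.91-fold the resting mean (log2 change 2.28, SE 0.056, adjusted p = 2.64e-16), and Ctsh went from 419, 425 and 426 to 1958, 1945 and 1856 (log2 change 2.15, SE 0.076, adjusted p = 3.94e-14). Both were higher than in any resting library, as were Sqstm1 with 2388, 2303 and 2405 tags (log2 change 1.55) and Npc2 with 3289.8, 3301 and 3237 (1.45). Atp6v0d2 fell from 5229, 5104 and 5506 to 1099, 1061 and 1119.7 tags (log2 change -2.26, SE 0.067, adjusted p = 3.59e-15), Ctsl from 3041, 3139 and 2688 to 683, 682 and 721 (-2.07) and Hexa from 4638, 4429.5 and 4139 to 1251, 1256 and 1147 (-1.85). Galc was at 216, 286 and 222 tags (log2 change -1.61), but the window around its start gave 0.18. Tfeb had 3268, 3274 and 3236 tags (log2 change 0.27, adjusted p = 0.00409), which became -0.021 with quantile normalization and -0.38 at the start. Tfe3 and Mitf, with 539, 555 and 511 and 10391, 10369 and 10470.1 tags, were lower by 0.95 and 0.21 on the log2 scale. The input library of KO at 18 h held far fewer tags in regions over these genes than the other inputs, with a median of 0.155% of the Pol II value against 2.68% to 6.51% in the other groups.

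The second question was whether loss of Nur77 changes these genes. At 0 h few differed: Pol II was higher in KO at 4 of 37 genes and lower at 1 (6.97% of all genes tested were called, 4.24% higher and 2.73% lower). Asah1 had 461, 588 and 533 tags in WT and 800.2, 825 and 988 in KO (log2 change 0.71, SE 0.13, adjusted p = 0.00147), yet the window at its start gave -0.34 and the call was lost without replicate 3. Atp6v0d2 (3739.9, 4376 and 4416 against 5229, 5104 and 5506 tags, log2 change 0.34) and Tfeb (1999, 2317 and 2231 against 2722, 2700.1 and 2688, 0.31) were also higher in KO. In these 3 genes every KO library stood above every WT library. Psap was 0.19 and Ctsc -0.23. With 1 replicate number or KO replicate 1 left out only 2 or 3 genes were called at 0 h, and each of the 5 lost its call in at least 1 such fit.

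After 1 h of LPS Pol II was higher in KO than in WT at 18 of 36 genes and lower at 5, a share of higher calls above that of all genes (45.8% of all genes tested were called, 38.3% higher and 7.48% lower) though with a median log2 difference of 0.21, close to the 0.24 of all genes. Centred libraries gave 8 higher and 8 lower and quantile normalization 11 and 6, beside 15.6% higher and 21.5% lower of all genes in the former and 16.5% and 14% in the latter. Of the 5 proton pump genes 4 were higher and none lower, beside 38.3% and 7.48% of all genes, and 3 with centred and 4 with quantile-normalized libraries. Atp6v0d2 had 909, 938 and 813 tags in WT and 2070.2, 2066 and 1995 in KO, the largest difference of the group (log2 change 1.20, SE 0.067, adjusted p = 8.72e-10), and Atp6v1h had 780.5, 599.6 and 629 and 1303, 1283 and 1254 (log2 change 0.93, SE 0.10, adjusted p = 1.58e-06). Lipa had 636, 582 and 639 and 959, 957 and 970.5 tags (log2 change 0.63, SE 0.058, adjusted p = 3.51e-07), but its start alone gave -0.17. Tfeb, at its low point, had 148, 144 and 184 tags in WT and 276, 272 and 279 in KO (log2 change 0.77, SE 0.075, adjusted p = 6.49e-07). All KO libraries of these 4 genes stood above all WT libraries. Membrane protein genes were higher in KO in 6 of 7 cases, beside the same shares of all genes, but in 1 with centred libraries. Tfe3 had 409.7, 412 and 376 and 444, 454 and 466 tags, a log2 difference of 0.19 that turned to -0.066 with centred libraries, and Mitf, with the values given above, had 0.015 (adjusted p = 0.854).

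Of the 5 genes lower in KO at 1 h 4 were cathepsins, and the fifth was Grn. Ctsk (chr3:95499256-95509362, plus strand) had 355, 331 and 376 tags in WT and 241, 234 and 242 in KO (log2 change -0.55, SE 0.078, adjusted p = 3.97e-05), and Ctss had 2192, 2240.3 and 2326 and 1614, 1509.6 and 1586 (log2 change -0.52, SE 0.057, adjusted p = 2.88e-06). Grn had 1707, 1675 and 1673 and 1166, 1191 and 1414 tags (log2 change -0.43, SE 0.072, adjusted p = 0.000198). No KO library reached a WT library in these 3 genes, and with centred libraries the differences were -0.80, -0.77 and -0.68. Ctsa (chr2:164832873-164841032, plus strand), the carboxypeptidase that protects sialidase, followed with 214, 243 and 286 tags in WT and 197, 186 and 206 in KO (log2 difference -0.31), a call lost without replicate 2 and without replicate 3.

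After 18 h Pol II was higher in KO at 5 genes and lower at 12 (21.1% of all genes tested were called, 7.58% higher and 13.5% lower), with a median log2 difference of -0.12 against -0.10, and centred libraries gave 8 and 8 (15.4% and 7.77% of all genes) and input subtraction 8 and 7 (32% and 6.3%). Ctsc stood out upward with 2498, 2619.8 and 2554 tags in WT and 4113, 3940.2 and 4221 in KO (log2 change 0.68, SE 0.056, adjusted p = 1.36e-07). Lamp2 had 1705, 1735 and 1809 and 2488, 2482 and 2413 tags (log2 change 0.49, SE 0.078, adjusted p = 0.000218) and Ctsh 1450.4, 1463 and 1449 and 1958, 1945 and 1856 (log2 difference 0.40). Asah1 was also higher, with 693, 594 and 661 and 939.8, 879.8 and 891 tags (0.47), but its start gave -0.46 and the call was lost without replicate 2 and without replicate 3. Lower in KO were Ctsa with 1105, 1170.2 and 1099 against 601, 564 and 613 tags (log2 change -0.91, SE 0.088, adjusted p = 8.73e-07), Ctsk with 708, 682 and 705 against 402, 361 and 434 (log2 change -0.79, SE 0.078, adjusted p = 1.01e-06) and Ctss with 8367, 8150.0 and 8648 against 5385, 5532 and 6042 (log2 change -0.57, SE 0.057, adjusted p = 1.46e-06). In all of these genes the genotypes did not overlap. Man2b1 had 431, 438 and 427 and 358, 308 and 237 tags (log2 difference -0.53), and its call was lost without replicate 2 and without replicate 3. Among the transcription factors only Mitf was called, with 11780.2, 11698 and 11872 tags in WT and 10391, 10369 and 10470.1 in KO (log2 difference -0.18, adjusted p = 0.0459), and this was lost with centred libraries and whenever a replicate number was left out. With 1 replicate number left out, 8 (without replicate 3) to 14 genes were called at 18 h in place of 17, and 16 to 24 at 1 h in place of 23. The shares of all genes in those fits are not given, so these counts do not single out the lysosomal genes.

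The difference in the LPS change itself, KO minus WT, was tested in the same fit. At 1 h it was positive at 8 genes and negative at 4 (18.5% of all genes tested were called, 14.2% higher and 4.23% lower). With centred libraries it was positive at 4 and negative at 8, and the log2 difference of the median of all genes went from 0.17 to -0.051. Atp6v1h had 860.0, 1009 and 1030.1 tags at 0 h in WT and 981, 935 and 1156 in KO. The largest were Atp6v0d2 (log2 change 0.86, SE 0.095, adjusted p = 1.29e-05) and Atp6v1h (log2 change 0.85, SE 0.14, adjusted p = 0.00051). In both genes Pol II fell in WT, and in KO Atp6v0d2 fell less (log2 change -1.36 against -2.22) and Atp6v1h rose (0.32 against -0.53). At the start of Atp6v0d2 the difference was -0.024, and that of Atp6v1h lost its call without replicate 2. Neu1 had 159, 186 and 204 tags at 0 h and 17.8, 28.5 and 29.1 at 1 h in WT and 185, 152 and 173 and 43.2, 47.5 and 38.4 in KO (difference 0.70). Gpnmb had 7556, 9248 and 9484 and 3780.0, 3877 and 3979 in WT and 8951, 8335 and 7708 and 6234, 5779 and 5603 in KO (0.66). Both fell less in KO. Ctss was the largest negative one (log2 change -0.59, SE 0.081, adjusted p = 0.000112), from 4235, 4167 and 4293 tags at 0 h in KO. Ctsk, which started from 552, 580.3 and 569 tags in WT and 530.1, 456 and 508 in KO, and Grn, which started from 1267, 1430.3 and 1320.0 and 1312, 1286 and 1209.9, had -0.36 and -0.35. Psap had -0.30. Without replicate 2 only 2 genes were called, and without replicate 3 only 7. These counts were not set beside all genes in those fits. At 18 h 14 genes were negative and 1, Ctsc, positive (14.8% of all genes tested were called, 4.86% higher and 9.94% lower). With centred libraries 9 were negative and 4 positive, while the log2 difference of the median of all genes went from -0.14 to 0.024. Ctsc had log2 change 0.90, SE 0.079, adjusted p = 1.03e-06, and Ctsa, from 1378, 1349 and 1472 tags at 0 h in WT and 1531, 1321 and 1367 in KO, log2 change -0.92, SE 0.12, adjusted p = 8.66e-05. Gaa had 56.7, 25.2 and 51.2 tags at 0 h and 50.1, 57 and 68.1 at 18 h in WT and 71.8, 70.7 and 44.4 and 37.2, 30.1 and 29.6 in KO, the largest negative difference (-1.13, adjusted p = 0.0343), but 0.27 at its start. Galc, with 328, 397 and 316 tags at 18 h in WT, had -0.76, which turned to 1.04 when the input was subtracted, and Man2b1 had -0.70. Leaving out 1 replicate number gave 7 (without replicate 2) to 8 genes at 18 h, again without the shares of all genes.

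**Figure D4:**
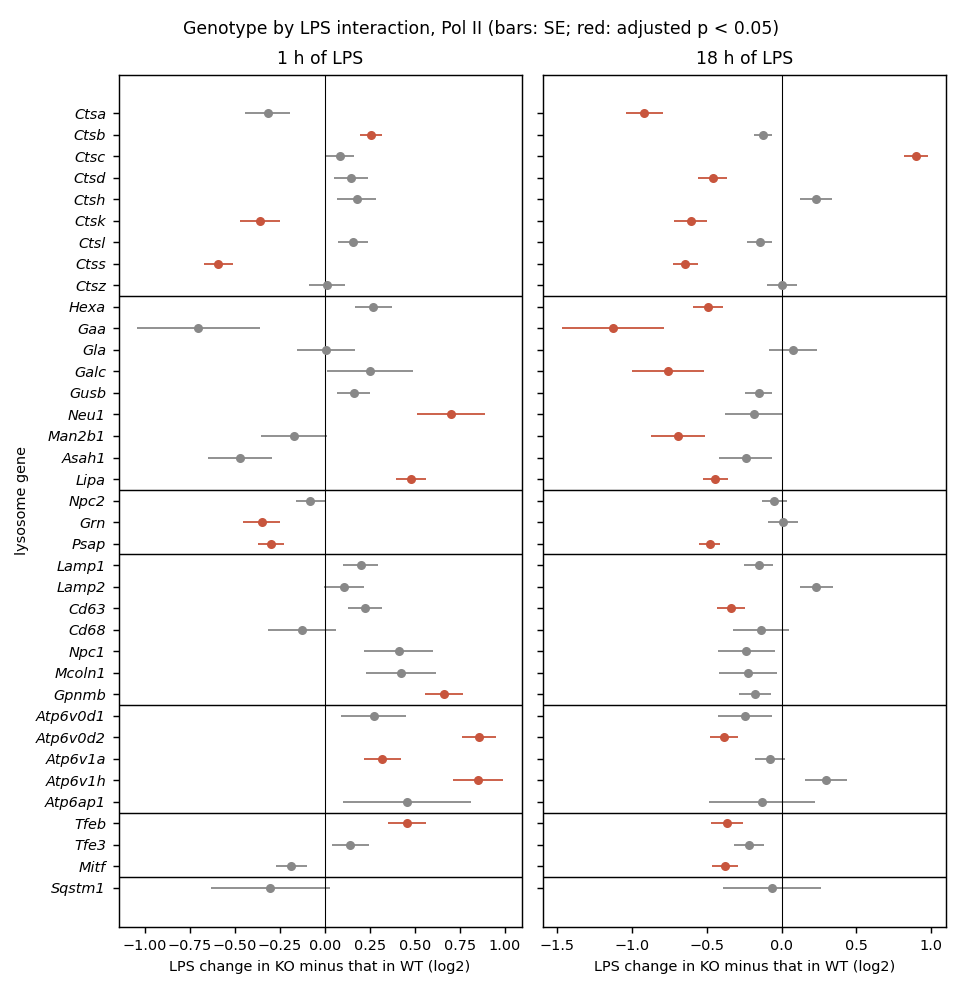
LPS change of Pol II in KO minus that in WT (log2, with SE bars) for the 37 lysosomal genes in order of role, at 1 h (left) and 18 h (right). Red points have an adjusted p under 0.05; at 1 h the proton pump genes Atp6v0d2 and Atp6v1h lie farthest to the right, and at 18 h most red points lie left of 0 and Ctsc lies right.

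H3K27ac differed between genotypes at no lysosomal gene at 0 h in the limma fit (0.771% of all genes tested were called, 0.466% higher and 0.305% lower), where 2 genes and 10.1% of all genes had an unadjusted p under 0.05. The fit without the 3 libraries that stand apart called 7 genes, and 9.78% of all genes. After 1 h 14 of 36 genes were higher in KO and none lower (18.5% of all genes tested were called, 11.1% higher and 7.42% lower), but without those libraries 1 was higher and 1 lower, and with KO replicate 1 alone none was higher and 1 lower. Both of these fits hold a single KO library at 1 h, which is assumed to vary like the libraries of the other groups. Without replicate 1, 29 genes were called, and 55.6% of all genes. None was called without replicate 2 or replicate 3, where 0.329% and 0.253% of all genes were called. Atp6v0d2 had 251, 225 and 258 tags in WT and 332, 754 and 487 in KO (log2 difference 0.99, and 0.43 with adjusted p = 0.0944 without the 3 apart libraries). Ctsd had 438, 384 and 358 in WT and 471, 1091 and 872 in KO (0.95, and 0.26 with adjusted p = 0.148). Gpnmb had 510.3, 534 and 477 in WT and 594, 998 and 966 in KO (0.70, and 0.23 without the 3 libraries), and Atp6v1a 645, 628 and 649.5 and 804, 1261 and 1135 (0.70, and 0.32). In all 4 genes KO replicate 1 was the lowest KO library and nearest to WT. Over the 36 genes KO replicate 2 lay above every WT library at 1 h in 32 and below every one in 2, replicate 3 in 29 and 3, and replicate 1 in 16 and 8, with a median log2 difference from WT of 0.59, 0.52 and 0.016. Of all genes tested, replicate 2 lay above every WT library in 47.5% and below in 33.3%, replicate 3 in 46.4% and 34.6%, and replicate 1 in 30.8% and 30.9%. After 18 h 3 genes were lower in KO and none higher (3.25% of all genes tested were called, 0.952% higher and 2.3% lower). This count depended on the libraries used: none was called without replicate 2 or replicate 3 (0.479% and 0.434% of all genes), 7 without replicate 1 (12.3%) and 8 without KO replicate 1 (17.2%). Without the apart libraries 2 were higher and 8 lower (4.3% and 14.3% of all genes), and with KO replicate 1 alone 6 and 13 (27% and 20.2%). The H3K27ac libraries of KO were deeper, and with all libraries and regions held to a common density floor 14 and 3 genes were called at the 2 times. Cd63, a tetraspanin gene, had 339, 285 and 264 tags in WT and 133, 201 and 175 in KO (log2 difference -0.78, and -0.62 with adjusted p = 0.00247 without the apart libraries). At a further annotated start of Cd63, 8.36 kb downstream, H3K27ac was stronger and overlapped between genotypes at 18 h, with 534, 619.7 and 584 tags in WT and 736, 507 and 557 in KO. Man2b1 (588, 560.1 and 526 against 337, 453 and 434 tags, -0.45, -0.32 without them) and Ctsc (723, 629.9 and 672 against 559, 510.3 and 484 tags, -0.38, -0.43 without them) were the others. Ctsc thus had less H3K27ac at its start in KO at 18 h while its Pol II was higher. In these 3 genes no KO library reached WT.

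Within KO, LPS lowered H3K27ac at 11 genes and raised it at 5 after 1 h (47% of all genes tested were called, 20.4% higher and 26.6% lower), and 20 and 5 without the apart libraries (35.1% and 24.1% of all genes). Without replicate 1 it was lower at 8 and higher at 10 (30% and 28% of all genes), which moved the median log2 change from -0.085 to 0.061. Without replicate 2 it was lower at 9 and higher at 2 (26.1% of all genes called, 11.6% higher). Without replicate 3 it was lower at 2 and higher at 4 (14.8% and 12.5%). After 18 h 8 were higher and 6 lower (52.7% of all genes tested were called, 18.4% higher and 34.2% lower), and the fit without those libraries gave 15 and 8 (21.6% and 46.1% of all genes). With 1 replicate number left out, 7 (without replicate 3) to 20 (without replicate 1) were called, without the shares of all genes in those fits. Npc2 went from 479, 467 and 446 tags at 0 h to 785, 765 and 711 at 1 h and 1052, 1016 and 1012 at 18 h, and Ctsh from 323, 334 and 307 to 458, 653 and 635 and 516, 697 and 711. Every stimulated library of both genes was above all resting ones, and the log2 changes at 1 and 18 h were 0.69 and 1.13 for Npc2 (0.75 and 1.11 without the apart libraries) and 0.82 and 0.96 for Ctsh (0.50 and 1.11). At 1 h Man2b1 had the largest fall with all libraries, from 738, 691 and 691 to 306, 328 and 342 tags (log2 change -1.10, SE 0.094, adjusted p = 2.08e-07). Without the apart libraries its log2 change was -1.18, and Lipa (-1.78), Psap (-1.47) and Ctsd (-1.44) fell more. Cd63 went from 184, 174 and 193 to 80.8, 89.1 and 101 tags at 1 h (log2 change -0.95, and -1.09 without the apart libraries). Lipa went from 797, 759.9 and 768 to 218, 681 and 521 (-0.84) and Psap from 1088, 1095 and 1026 to 381, 923 and 669 (-0.78). In these 3 genes the lowest library at 1 h was KO replicate 1. Ctsc rose from 440.4, 453 and 436 to 530.3, 604 and 563 tags (0.34, and 0.25 without the apart libraries) and Lamp1 from 577, 537 and 531 to 589, 797 and 647 (0.29, and 0.10). At 18 h the largest fall was that of Atp6v0d2, from 761, 754 and 752 to 355, 318 and 282 (log2 change -1.23, SE 0.20, adjusted p = 8.66e-05, and log2 change -1.31 without the apart library). Hexa went from 1587, 1128 and 1566 to 1031, 674 and 667 tags (-0.86, and -1.06 without that library), Man2b1 to 337, 453 and 434 (-0.79, and -0.66) and Asah1 from 542, 504 and 519.7 to 360.4, 296 and 259.6 (-0.77, and -0.89). Upward, Npc1 went from 141, 143 and 129.7 to 349, 194 and 189 (0.72, and 0.45) and Ctsl from 237, 243 and 237 to 346, 305 and 313 (0.41, and 0.36). No stimulated library of these 5 genes overlapped a resting one. The difference in the LPS change of H3K27ac between genotypes was called at no lysosomal gene at either time in the limma fit (at 1 h 0.568% of all genes tested were called, 0.115% higher and 0.453% lower, and at 18 h 0.63% of all genes tested were called, 0.166% higher and 0.465% lower). An unadjusted p under 0.05 was seen at 16 and 5 genes, and at 20.5% and 13% of all genes. Without the apart libraries the test at 18 h called 6 genes, and 14.4% of all genes. The test at 1 h called 26 genes without replicate 1, and 40.3% of all genes.

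Tfeb had 458, 464 and 440.0 tags of H3K27ac at its start at 18 h in WT (adjusted p = 0.383). In KO it had 311, 328 and 330.1 at 0 h, 157, 237 and 225 at 1 h (log2 change -0.64, and -0.99 without the apart libraries) and 222, 452 and 458 at 18 h. Its fall at 1 h was thus seen in both genotypes. Tfe3 had 361, 351 and 409.9 tags at 18 h in WT (log2 change -0.23, adjusted p = 0.0442), overlapping the resting ones. In KO it had 458, 449 and 453 at 0 h, 338, 409.8 and 354 at 1 h (-0.30, and -0.41 without the apart libraries) and 376, 345 and 402 at 18 h (-0.27, and -0.28). At 1 h it was higher in KO than in WT by 0.35 (adjusted p = 0.0188), and by 0.23 without the apart libraries. Mitf had 706, 688 and 714 tags at 18 h in WT (adjusted p = 0.0828). In KO it had 608, 592 and 577 at 0 h, 868, 579 and 488 at 1 h and, after 18 h, 369, 709.6 and 713, with no call in KO at either time. No other comparison of genotypes was called at these 3 genes.

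**Figure D5:**
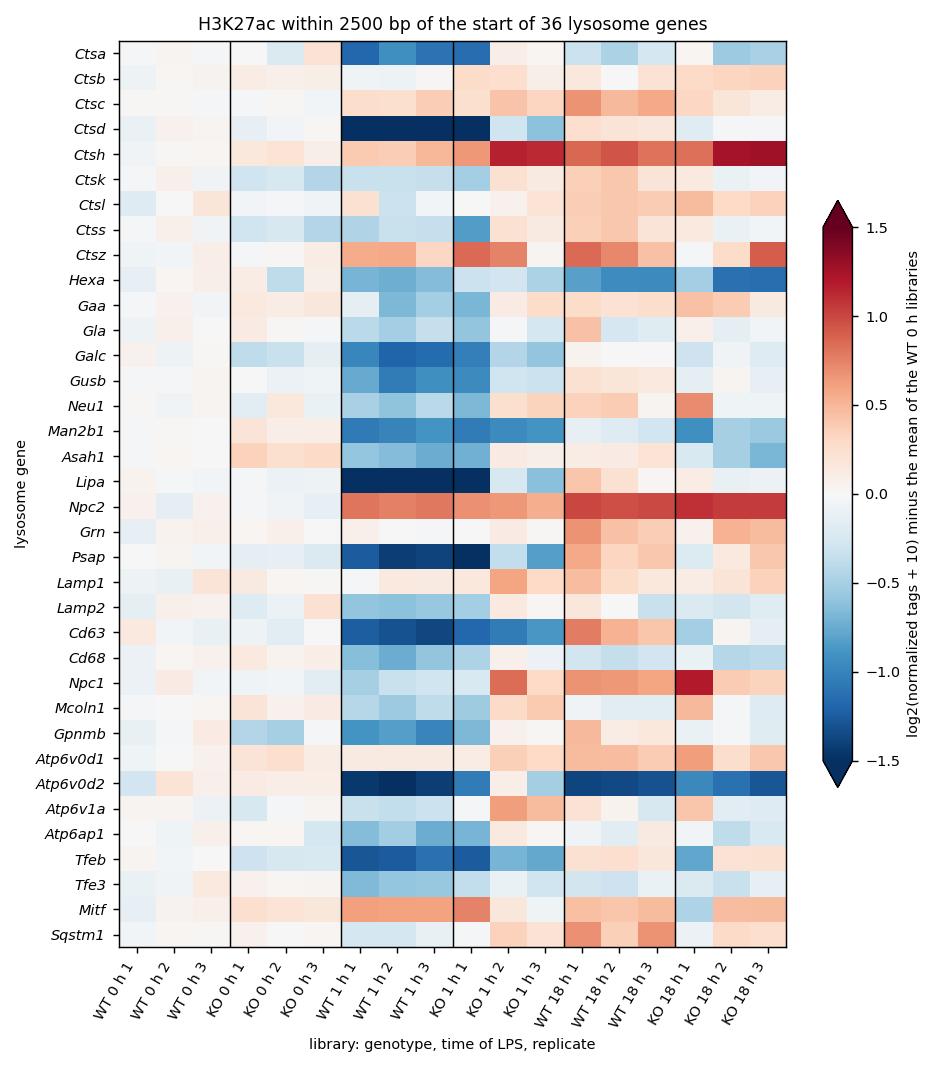
H3K27ac within 2500 bp of the start of 36 lysosomal genes in each of 18 libraries, as log2(normalized tags + 10) minus the mean of the WT libraries at 0 h. Red is higher and blue lower, and colours saturate at 1.5; KO replicates 2 and 3 at 1 h are redder than KO replicate 1, which looks like the WT libraries at 1 h.

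A wider list of 106 further lysosomal and autophagy genes gave the setting for these results. After 1 h in WT Pol II was lower at 80 and higher at 15 of 105 genes (median log2 change -1.19), beside 68.5% lower and 18.6% higher of all genes tested (median -0.82), but 55 and 30 with centred libraries and 59 and 25 with quantile normalization. After 18 h 44 were higher and 27 lower (median 0.16), beside 33.3% and 33.3% of all genes. KO exceeded WT at 1 h at 53 of 102 genes and fell below it at 4, beside 38.3% and 7.48% of all genes, but centred libraries gave 37 and 14 and quantile normalization 32 and 6. At 18 h KO was higher at 7 and lower at 16 of 104 genes, near the 7.58% and 13.5% of all genes, and centred libraries gave 22 and 10. Clcn7, the lysosomal chloride and proton exchanger, had 685, 824 and 762 tags at 0 h and 3084, 2919.5 and 3040.5 at 18 h in WT (log2 change 1.98, SE 0.064, adjusted p = 1.5e-14), the largest rise of the list. Sumf1, which activates sulfatases, and Atg5, needed to form autophagosomes, rose by log2 changes of 1.93 and 1.91, but in WT at 18 h the input held 168 tags beside a mean of 368 at Sumf1 and 361 beside 581 at Atg5. Rptor, a subunit of the nutrient-sensing kinase complex mTORC1, had 1451, 1911 and 1746 tags at 0 h and 379.9, 386 and 406 at 18 h (log2 change -2.09, SE 0.10, adjusted p = 5.31e-12), the latter beside an input of 302 tags. Atp6v0a1, another proton pump subunit, fell by 2.02 and Dnase2a, lysosomal DNase II, by 1.95 on the log2 scale. All 6 of these genes had resting and stimulated libraries that did not overlap.

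The Pol II changes were also counted by the E-box of the promoters shown above. After 1 h in WT, of the 6 genes with TCACGTGA 5 fell and none rose (median log2 change -1.75), of the 3 with CACGTG only 1 fell (median 0.031), and of the 22 matched genes with neither 15 fell and 6 rose (median -1.24), beside 68.5% lower and 18.6% higher of all genes tested. After 18 h the 6 genes had 2 higher and 2 lower, and the 22 had 14 higher and 6 lower, beside 33.3% and 33.3% of all genes. These counts are descriptions of small groups and were not tested against each other.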

How the data were processed

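ChIP-seq of Pol II and H3K27ac was analysed in 36 libraries, 3 for each genotype, time and antibody, with 6 input libraries. The authors trimmed reads, aligned them to mm10 with HISAT2 2.1.0, removed duplicates and called regions in each library with HOMER in its histone mode and without an input control, in windows of 500 bp at a Poisson p of 0.001 stitched within 1000 bp. The deposited values are a signal, HOMER's normalized tag count per 10000000 tags, and they were used as given. A region's tags were shared with a gene window (GENCODE vM21) in proportion to overlap, so a value inside a broad region is that region's average density. Regions below a density of about 10.8 tags per kb for Pol II and 14.5 for H3K27ac were rarely called (1st percentile, highest of 18 libraries), and counts of single reads were not used, so no counting interval is given.

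Log2(tags + 10) was fitted with limma 3.58.1 in R 4.3.3, with 6 group means over the 18 libraries of an antibody, an intensity trend and Benjamini-Hochberg adjustment over all genes above 0 in at least 2 of 3 libraries of a compared group. The threshold for a call was an adjusted p of 0.05, and log2 changes of low genes are understated by the added 10 tags. Tables and figures came from pandas 2.3.3, numpy 2.4.6 and matplotlib 3.10.9 under Python 3.11.15. The fit was tested on simulated data with 200 changed genes. Values in every library are given, per comparison, for up to 4 genes in each direction with the largest called change and no overlap between groups, and for Tfeb, Tfe3 and Mitf, and of the wider list for the 3 largest called changes in each direction in WT at 18 h. The members, gene lists and comparisons were chosen with earlier results of these data known. Alternatives were a pseudocount of 1, other filters on low values, centred libraries, narrow windows, a common density floor, input subtraction, a replicate block, each replicate left out, and KO replicate 1 left out or alone. The fit without the 3 apart H3K27ac libraries and quantile normalization were added after seeing the data. Genes with a duplicated symbol (54) were left out. A few values of genes outside the 37 are not reported here.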

Additional observations from a re-analysis of the deposited data

Results flagged for a closer look

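The LPS change of Pol II differed between KO and WT by a test of the difference itself at 12 of the 37 lysosomal genes at 1 h and at 15 at 18 h (limma, adjusted p under 0.05). Beside these stood 18.5% and 14.8% of all genes tested. With centred libraries negative calls outnumbered positive ones at 1 h, as given above. Those genes named by the fixed rule, with Tfeb and Mitf, are given here as values. At 1 h the log2 difference, KO minus WT, was positive for Atp6v0d2 (0.86), Atp6v1h (0.85), Neu1 (0.70), Gpnmb (0.66) and Tfeb (0.46). It was negative for Ctss (-0.59), Ctsk (-0.36), Grn (-0.35) and Psap (-0.30). For Atp6v0d2 it was -0.024 in the narrow window. At 18 h it was positive for Ctsc (0.90) and negative for Gaa (-1.13), Ctsa (-0.92), Galc (-0.76), Man2b1 (-0.70), Mitf (-0.38) and Tfeb (-0.37). Gaa rests on few tags, with 56.7, 25.2 and 51.2 at 0 h and 50.1, 57 and 68.1 at 18 h in WT and 71.8, 70.7 and 44.4 and 37.2, 30.1 and 29.6 in KO, and its difference turned to 0.27 in the narrow window. Galc at 18 h lay close to the input of WT (328, 397 and 316 tags against 254), while the input of KO held 10.9, and its difference turned to 1.04 with input subtraction. With every replicate number left out in turn, Ctsc and Ctsa kept their call at 18 h, and Atp6v0d2 and Ctss kept theirs at 1 h. All 4 also kept it with centred libraries.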

How the results depend on the processing

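The count of lysosomal genes called in Pol II after LPS stayed within 1.5 times in every alternative: 33 in WT at 1 h (32 to 33 with a replicate left out), 30 in WT at 18 h (26 to 29), 36 in KO at 1 h (33 to 35) and 32 in KO at 18 h (29 to 32). In the same order, 87%, 66.6%, 82.8% and 70.2% of all genes tested were called in the main fit. The split into higher and lower was less stable and moved with the scaling, as given above. Counts between genotypes depended on the processing. Those below are of lysosomal genes alone, and the shares of all genes in the main fit stand with each comparison above. For Pol II they were, for KO against WT at 0 h, 5, and 9 with centred libraries, 8 with quantile normalization, 1 in the narrow window, 0 with KO replicate 1 alone and 2 to 3 with a replicate left out. At 1 h the count of 23 became 10 in the narrow window and 12 with KO replicate 1 alone (16 to 24 with a replicate left out), and at 18 h that of 17 became 7 and 5 (8 to 14). For the difference in the LPS change, 12 at 1 h became 2 in the narrow window and 1 with KO replicate 1 alone (2 to 11), and 15 at 18 h became 6 and 4 (7 to 10). For H3K27ac the counts without the 3 apart libraries, with KO replicate 1 alone where it moved the count, and the range with a replicate left out were 26, 23 and 9 to 25 for WT at 18 h (main count 15), 25 and 6 to 18 for KO at 1 h (16, and 9 in the narrow window), 23 and 7 to 20 for KO at 18 h (14), 7 and 0 to 4 for KO against WT at 0 h (0), 2, 1 and 0 to 30 at 1 h (14), and 10, 19 and 0 to 8 at 18 h (3). The difference in the LPS change of H3K27ac went from 0 to 2 with input subtraction, 1 with quantile normalization and 0 to 26 with a replicate left out at 1 h. At 18 h the count of 0 became 6 without the 3 apart libraries and 0 to 4 with a replicate left out. WT at 1 h gave 22 (17 to 32). The cause of these shifts was not tested.

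Little pairing of libraries by replicate number was seen. Same-numbered libraries deviated together at r = -0.076 to 0.108 in Pol II (median 0.0094, against -0.0034 for other numbers), with 1 of 45 pairs above 0.1. In H3K27ac they did so at -0.42 to 0.081 (median -0.0012, against -0.0019). In Pol II 10 and in H3K27ac 3 of 18 libraries correlated best with their own number, so weak pairing in Pol II was not excluded. A replicate block changed the H3K27ac count for KO against WT at 1 h from 14 to 9 and no other count by over 1.5 times.

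Of 124 changes of single genes, 15 values in other settings changed sign. In the narrow window these were Man2b1 in WT at 18 h (0.043), Mitf (-0.18) and Tfeb (-0.089) there, Galc (0.18) and Tfeb (-0.38) in KO at 18 h, Asah1 in KO against WT at 0 h (-0.34) and 18 h (-0.46), Lipa (-0.17) and Tfe3 (-0.15) at 1 h, and the difference in the LPS change of Atp6v0d2 at 1 h (-0.024) and Gaa at 18 h (0.27). Quantile normalization turned Mitf in WT (-0.21) and Tfeb in KO at 18 h (-0.021), centring turned Tfe3 in KO against WT at 1 h (-0.066), and input subtraction turned the difference in the LPS change of Galc at 18 h (1.04). Another 218 values kept their direction without passing the threshold, and 1545 kept both.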
